A study of Mus musculus with 10 samples.

Results

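Mice and humans make filamentous actin from a small family of near-identical proteins, and the 5 members described here are Acta1 (skeletal muscle α-actin), Actc1 (cardiac α-actin), Acta2 (vascular smooth muscle α-actin), Actb (cytoplasmic β-actin) and Actg1 (cytoplasmic γ-actin). They were chosen by name and matched to the Ensembl IDs of the count files with a GRCm38 annotation, and all 5 of 5 were among the 16112 genes counted. RNA was measured in whole muscle from wild type mice of the strain B6C3Fe a/a-Ttnmdm/J, a colony that carries the mdm allele of Ttn, with no treatment named: the extensor digitorum longus (EDL, 3 libraries, ages 42 to 54 days), the psoas (3 libraries, 42 to 54 days) and the soleus (4 libraries, 32 to 44 days). EDL and psoas are classed as fast muscles and soleus as a slow one. The sex label was M for 5 libraries and F for 4, and 1 soleus library carried none. The animal codes named 7 mice, of which 3 gave more than 1 library: EDL 3 with soleus 2, psoas 1 with soleus 1, and psoas 3 with soleus 4.

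The libraries held 12737971 to 50431713 reads assigned to genes. Reads had been trimmed before alignment in EDL 1, EDL 2, psoas 1 and psoas 2 and in none of the other 6 libraries. Within EDL and within psoas the trimmed libraries were also those labelled M and the untrimmed one that labelled F, so trimming and sex cannot be told apart in these muscles. The soleus label was checked against fiber genes. All 7 of 7 myosin, troponin and tropomyosin genes of slow fibers rose in soleus against EDL and against psoas by the test used here. In these comparisons 3.59% and 2.99% of all genes were called higher in soleus. This leaves the EDL and psoas labels unchecked against each other. Markers of skeletal muscle were the most abundant of the marker lists in every group, with summed levels of 50689 to 94052 normalized CPM (read counts scaled to a common library size) over 6 genes.

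Actin monomers polymerize into filaments that serve different structures. In the sarcomere of skeletal muscle the α-skeletal and α-cardiac proteins build the thin filament along which myosin pulls. The cardiac gene is strongly used in the heart and in developing skeletal muscle and is usually low in adult limb muscle. Vascular smooth muscle α-actin is the contractile actin of vessel walls and is also found in myofibroblasts, while β- and γ-actin form the cytoskeleton of nearly every cell and, in muscle fibers, the filaments linked to the membrane.

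The coding parts were compared because reads can be assigned to the wrong actin gene only where sequences are shared. Coding length was 1134 bases in Acta1, Actc1 and Acta2 and 1128 bases in Actb and Actg1. The first 60 coding bases of the main GENCODE M21 transcript of each gene are given here, 5′ to 3′, and capitals mark the bases that differ from, or have no partner in, Acta1 in the alignment of the whole coding parts.
Acta1: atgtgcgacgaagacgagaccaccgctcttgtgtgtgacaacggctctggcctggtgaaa
Actc1: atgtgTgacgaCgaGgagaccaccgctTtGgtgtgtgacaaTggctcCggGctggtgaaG
Acta2: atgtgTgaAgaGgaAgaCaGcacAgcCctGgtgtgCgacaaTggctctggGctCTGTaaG
Actb: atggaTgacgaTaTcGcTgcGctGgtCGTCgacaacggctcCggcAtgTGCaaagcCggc
Actg1: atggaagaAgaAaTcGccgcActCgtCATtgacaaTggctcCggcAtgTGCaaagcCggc
In the printed bases Actc1 differed from Acta1 at 9, Actg1 at 16, and Acta2 and Actb each at 17. These counts leave out bases of Acta1 that have no partner in the other gene. The 60 bases of Actb and Actg1 reach past those printed for Acta1, so their counts are not on the same stretch. Over the whole coding part, identity ran from 81.5% (Actc1 with Actg1 and Acta2 with Actg1) to 88.7% (Actb with Actg1), and Acta1 and Actc1 were 86.2% identical with no identical run over 29 bases. Reads were sequenced at 75 bases, and trimming can have left shorter ones in EDL 1, EDL 2, psoas 1 and psoas 2. The longest identical coding run with another member was 32 bases in Actc1 and 56 in Acta2. The stretches below thus speak for untrimmed reads only, and sharing by shorter reads was not tested. None of the 1399 stretches of 75 bases in Actc1 and none of the 1961 in Acta2 occurred in a transcript of another gene, against 6 of 1372 in Acta1 (0.437%) and 48 of 1846 in Actb (2.60%). In Actg1, 1023 of 1878 stretches (54.5%) occurred elsewhere, mainly in processed pseudogenes, so its count is uncertain. Acta1 and Actb share 3 stretches, and Acta1 had far more reads (374542 against 17195 in EDL 1, 365876 against 2510 in psoas 3). The count of Actb may thus hold reads of Acta1, to a degree that can differ between muscles and was not tested.

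Acta1 was by far the most abundant of the 5 in every library. On the per-length scale (FPKM, normalized CPM per kilobase of exon) it reached 7919 ± 3777 in EDL (SD, n = 3), 13650.1 ± 2885 in psoas (SD, n = 3) and 13189 ± 1305 in soleus (SD, n = 4), which placed it at ranks 16, 14 and 8 of 16032 genes with a symbol. Acta1 alone took 0.848% to 2.73% of all assigned reads. In EDL the order by FPKM went on with Actc1 (162 ± 117), Actb (123 ± 24.5), Actg1 (59.6 ± 12.8) and Acta2 (9.91 ± 2.75). The ranges of Actc1, Actb and Actg1 overlapped for Actc1 with either cytoplasmic gene and not for Actb with Actg1. In psoas the order was the same, with Actc1 at 76.5 ± 50.7, Actb at 70.7 ± 8.19, Actg1 at 33.7 ± 1.21 and Acta2 at 5.80 ± 2.43, and again Actc1 and Actb overlapped. In soleus Actb (94.2 ± 12.3) and Actg1 (51.6 ± 4.91) came before Actc1 (14.4 ± 9.67) and Acta2 (9.99 ± 1.94), and the last pair overlapped.

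**Figure D1:**
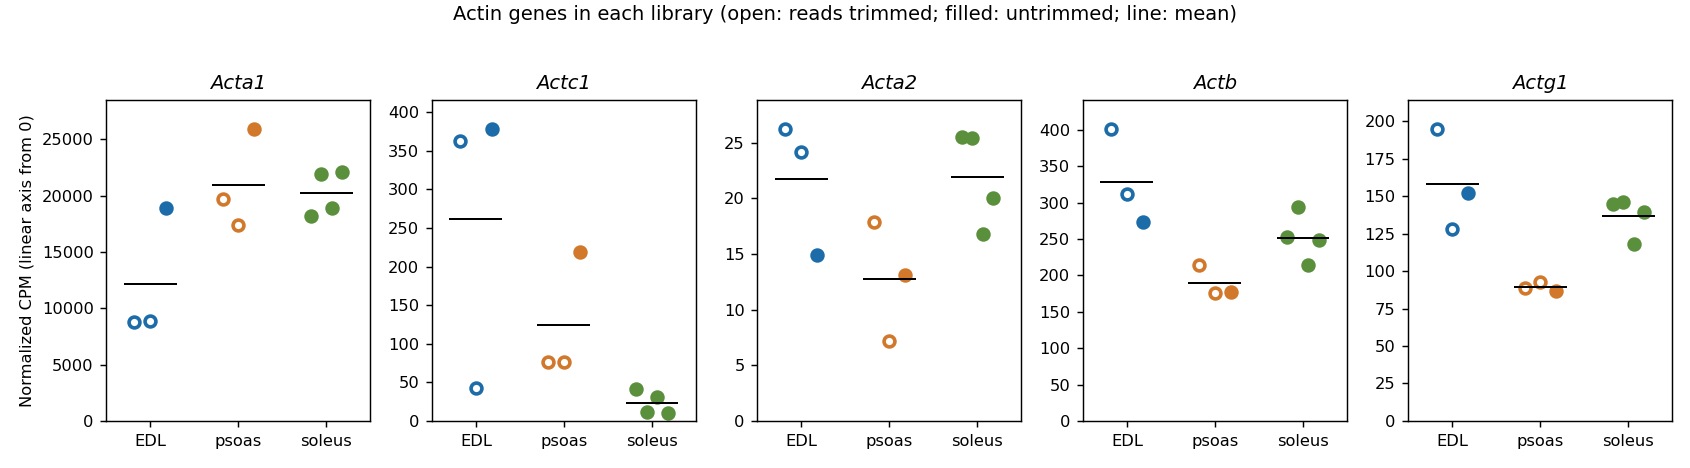
Normalized CPM of the 5 actin genes (y axis, linear, starting at 0) in each of the 10 libraries by muscle (x axis); open points are libraries with trimmed reads, filled points libraries without, and lines are group means. Actc1 runs from 9.71 to 41.7 in soleus against 43.2 to 378 in EDL, and Actg1 from 86.7 to 93.0 in psoas, below every other library.

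Differences between muscles were tested by quasi-likelihood in edgeR, with all 10 libraries fitted together and p-values adjusted over the 16112 genes (Benjamini-Hochberg). A gene was called where the adjusted p was under 0.01 and the fold over 2. This rule called 2.11% of all genes in psoas against EDL, 5.77% in soleus against EDL and 5.69% in soleus against psoas. Split by direction, 0.54% were higher and 1.57% lower in psoas than in EDL, 3.59% higher and 2.18% lower in soleus than in EDL, and 2.99% higher and 2.71% lower in soleus than in psoas. Of the 5 actin genes edgeR called 0, 1 and 0, while 3, 1 and 4 had an unadjusted p under 0.05. Of all 16112 genes, 4679, 5646 and 4574 had an unadjusted p under 0.05. DESeq2 likewise called 0, 1 and 0 of the 5 actin genes, and limma-voom called 0 in each. A looser rule, adjusted p under 0.05 at any fold, took 11.1%, 18.6% and 14.5% of all genes and 2, 1 and 2 of the 5 actin genes. Its shares were 4.76% higher and 6.34% lower in psoas against EDL, 9.79% higher and 8.8% lower in soleus against EDL, and 7.75% higher and 6.78% lower in soleus against psoas. The median log2 fold change over all genes was 0.01, -0.05 and 0.02 in the same order. The 3 comparisons share libraries and are not independent of each other.

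**Figure D2:**
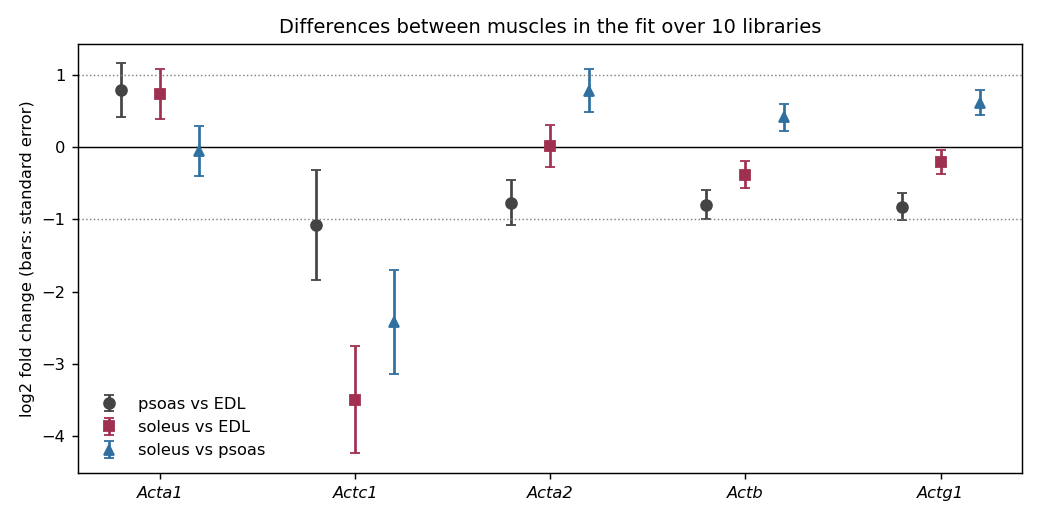
Log2 fold changes of the 5 actin genes (y axis) in the 3 comparisons, with bars for the standard error of the fit and dotted lines at a fold of 2. The soleus values of Actc1 lie at -3.49 against EDL and -2.41 against psoas, and all other points lie within -1.08 to 0.79.

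Actc1 (ENSMUSG00000068614, chr2:114047282-114053548, minus strand), the cardiac isoform of the thin filament, fell in soleus relative to EDL. Its levels were 363, 43.2 and 378 normalized CPM in EDL 1 to 3. They were 76.4, 76.2 and 219 in psoas 1 to 3, and 41.7, 10.9, 30.9 and 9.71 in soleus 1 to 4. Every soleus library was lower than every EDL and psoas library, although EDL 2 at 43.2 stood only just above soleus 1 at 41.7, and within EDL the level varied 8.76-fold. The log2 fold change of soleus against EDL was -3.49 (SE 0.74, adjusted p = 0.00896), that is 11.3-fold lower. Against psoas it was -2.41 (SE 0.72, adjusted p = 0.0439), which missed the call rule and passed the looser one, and psoas against EDL gave -1.08 (SE 0.76, adjusted p = 0.376) with overlapping groups. The looser call against psoas was lost without EDL 1, any psoas library, soleus 2, soleus 3 or soleus 4, at adjusted p from 0.0543 to 0.156, and in the untrimmed libraries (-3.24, adjusted p = 0.0603). Without psoas 3 the log2 fold change was -1.72. Groups did not overlap for 29.5% of all genes in soleus against EDL and for 25.8% in soleus against psoas.

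The direction of Actc1 in soleus against EDL was the same in 23 of 23 alternative fits, but the call was close to its threshold. It was made in 11 of the 23, and leaving out any of EDL 1, EDL 3, psoas 1, psoas 2 or the 4 soleus libraries raised the adjusted p above 0.01, to between 0.0109 and 0.0339. In the 3 mice that gave 2 libraries, Actc1 was lower in soleus each time. The mouse with EDL 3 (378 normalized CPM) and soleus 2 (10.9) had an EDL-to-soleus ratio of 34.6, that with psoas 3 (219) and soleus 4 (9.71) a psoas-to-soleus ratio of 22.5, and that with psoas 1 (76.4) and soleus 1 (41.7) a ratio of 1.83. With the animal as a random effect in limma-voom the log2 fold change of soleus against EDL was -3.53 (adjusted p = 0.00908). When trimming entered the fit as a covariate, the value was -4.25 (adjusted p = 0.00976), and in the 6 untrimmed libraries alone -4.07 (adjusted p = 0.0286).

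Acta1 (ENSMUSG00000031972, chr8:123891769-123894751, minus strand), the main actin of the adult skeletal thin filament, met the rule in no comparison. It stood at 8746, 8883 and 18863 normalized CPM in EDL 1 to 3. In psoas 1 to 3 it was 19649, 17343 and 25907, and in soleus 1 to 4 it was 18226, 21910.1, 18849 and 22048. EDL 1 and EDL 2 were low and EDL 3 lay inside the range of both other muscles, so the groups overlapped in all 3 comparisons. The log2 fold change was 0.79 for psoas against EDL (SE 0.37, adjusted p = 0.186), 0.74 for soleus against EDL (SE 0.35, adjusted p = 0.158) and -0.05 for soleus against psoas (SE 0.34, adjusted p = 0.946). In DESeq2 psoas against EDL gave 0.80 (adjusted p = 0.0405) and soleus against EDL 0.73 (adjusted p = 0.0395), which passed only the looser rule. In limma-voom their adjusted p was 0.0906 and 0.0677, which passed neither rule.

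Read trimming moved with these values. The untrimmed library was 2.14 times the mean of the trimmed ones for Acta1 in EDL and 1.40 times in psoas, and for Actc1 the same ratios were 1.86 and 2.86, with 1 untrimmed library in each muscle. For Actb and Actg1 the ratios lay between 0.767 and 0.953, and for Acta2 they were 0.591 in EDL and 1.04 in psoas. In the 6 untrimmed libraries the log2 fold change of Acta1 in soleus against EDL was 0.05 (adjusted p = 0.975), and with trimming as a covariate 0.29 (adjusted p = 0.649). Without EDL 3 it was 1.2 (adjusted p = 0.0180), and that of psoas against EDL was 1.25 (adjusted p = 0.0224), and leaving out EDL 1 or EDL 2 gave 0.50 and 0.55 for soleus and 0.56 and 0.60 for psoas, so the size depended on which EDL libraries entered.

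The regions just before the start sites are shown for the members whose upstream sequence holds a strict match to the CArG box. This is the element bound by serum response factor, a regulator known for its hold on actin genes. Upstream sequences of 250 bases from RefSeq (GRCm38.p6) were matched for 4 of the 5 members (Acta1, Actc1, Acta2 and Actg1). They were searched for the strict form CCWWWWWWGG, where W is A or T, a palindromic motif with the same matches on both strands. Boxes with a G or C in the core were not searched for, so a window without a match may still hold such a box. Acta1, Actc1 and Actg1 held 1 match each, with the first base at -73, -47 and -90 from the RefSeq start. The Acta2 window held none of this strict form, and all were searched over the full 250 bases. Of all 32851 such windows, 482 (1.47%) held the motif. In the sequences capitals mark the match to the strict form only. The part covered by GENCODE exons of the gene is left out of the printed sequences, and the Actc1 window lies inside the GENCODE span of its gene because a longer transcript starts further upstream.
Acta1, chr8:123894776-123895025, minus strand: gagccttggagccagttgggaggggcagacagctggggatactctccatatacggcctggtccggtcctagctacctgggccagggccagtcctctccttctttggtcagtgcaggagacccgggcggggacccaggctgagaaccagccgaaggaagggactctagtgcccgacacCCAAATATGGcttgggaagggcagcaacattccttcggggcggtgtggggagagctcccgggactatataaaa
Actc1, chr2:114052888-114053125, minus strand: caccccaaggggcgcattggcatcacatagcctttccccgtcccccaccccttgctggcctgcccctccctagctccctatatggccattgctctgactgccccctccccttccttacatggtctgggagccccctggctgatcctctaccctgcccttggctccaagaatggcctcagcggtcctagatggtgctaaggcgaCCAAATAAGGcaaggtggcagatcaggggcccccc
Actg1, chr11:120348543-120348745, minus strand: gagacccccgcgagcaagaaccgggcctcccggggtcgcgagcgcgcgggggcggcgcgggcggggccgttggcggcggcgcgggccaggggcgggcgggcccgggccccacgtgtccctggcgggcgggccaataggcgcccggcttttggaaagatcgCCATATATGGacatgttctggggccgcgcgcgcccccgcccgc
A match of letters is a description and no measure of binding. Of the 3 genes that hold it, Actc1 was called in soleus against EDL, and Acta1 and Actg1 were called in no comparison.

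Acta2 (ENSMUSG00000035783, chr19:34241090-34255590, minus strand), the actin of vascular smooth muscle, was the lowest of the 5 per length in EDL and psoas. Its levels were 26.2, 24.2 and 14.9 normalized CPM in EDL 1 to 3, then 17.9, 7.23 and 13.1 in psoas 1 to 3. In soleus 1 to 4 they were 25.5, 25.4, 16.8 and 20.1. The groups overlapped in every comparison, and psoas had the lowest mean. Psoas against EDL gave a value of -0.77 on the log2 scale (SE 0.31, adjusted p = 0.131), soleus against psoas 0.78 (SE 0.30, adjusted p = 0.110) and soleus against EDL 0.01 (SE 0.29, adjusted p = 0.985). In the mice with a psoas and a soleus library the soleus level was 1.43 and 1.53 times that in psoas. In the untrimmed libraries, with 1 EDL and 1 psoas library, psoas against EDL was -0.22 (adjusted p = 0.979), and with scaling by library totals alone it was -1.14 (adjusted p = 0.0447), which passed the looser rule.

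Acta2 was also set beside Myh11, the smooth muscle myosin heavy chain. No difference in their ratio between muscles had an adjusted p under 0.05 in exact permutation tests. Groups overlapped in psoas against EDL (adjusted p = 0.24) and in soleus against EDL (adjusted p = 0.623). The ratio per kilobase of exon averaged 2.60 in EDL, 1.81 in psoas and 2.83 in soleus (geometric means). All 4 soleus libraries were above all psoas libraries, with a log2 difference of 0.65 (two-sided exact permutation test, p = 0.0571, the smallest that 4 against 3 can give, and 0.137 after adjustment over 12 ratio tests). The 9 smooth muscle markers counted, of 10 listed, summed to 120 to 158 normalized CPM in EDL, 138 to 244 in psoas and 219 to 268 in soleus, with none at 0. Of the 9, edgeR called Synpo2 (log2 fold change 1.59) and Pcp4l1 (4.68) higher in soleus than in EDL, where 3.59% of all genes were called higher. It called Pcp4l1 higher (4.52) and Lmod1 lower (-3.29) in soleus than in psoas, where 5.69% of all genes were called. In psoas against EDL it called 0, with 2 higher and 1 lower by the looser rule. Synpo2, which skeletal fibers also make, had the highest mean of the list in each muscle. The other markers were called in no comparison, among them Myh11 (mean 31.1 in EDL, 24.0 in psoas, 26.6 in soleus), Tagln (3.20, 2.07 and 3.92) and Cnn1 (0.460, 0.351 and 0.633).

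Actb (ENSMUSG00000029580, chr5:142903115-142906754, minus strand), the β-actin of the general cytoskeleton, had its lowest mean in psoas. It stood at 402, 312 and 274 normalized CPM in EDL 1 to 3. In psoas 1 to 3 it was 215, 176 and 178, and in soleus 1 to 4 it was 252, 294, 214 and 249. No psoas library reached the lowest EDL library, while soleus 3 at 214 was just below psoas 1 at 215. Groups did not overlap for 29.6% of all genes in psoas against EDL. Psoas against EDL gave -0.80 on the log2 scale (SE 0.20, adjusted p = 0.0283), a 1.74-fold difference that passed only the looser rule. Leaving out EDL 1, EDL 2, psoas 2 or psoas 3 brought that adjusted p to 0.105, 0.0753, 0.0891 and 0.0862, and it was 0.0765 with these muscles fitted alone and 0.690 in the untrimmed libraries. In DESeq2 the difference of psoas and EDL was -0.78 (adjusted p = 0.00108), which met the p limit of the call rule and not its fold limit. By edgeR soleus against EDL gave -0.38 (SE 0.18, adjusted p = 0.163) and soleus against psoas 0.41 (SE 0.19, adjusted p = 0.174).

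Actg1 (ENSMUSG00000062825, chr11:120345690-120348542, minus strand), the γ-actin of the cytoskeleton and of the filaments next to the fiber membrane, followed the same order. Its levels were 195, 128 and 152 normalized CPM in EDL 1 to 3. In psoas 1 to 3 they were 88.9, 93.0 and 86.7, within 1.07-fold of each other, and in soleus 1 to 4 they were 145, 146, 118 and 139. All psoas libraries were below all libraries of the other muscles. Of all genes, 29.6% did not overlap in psoas against EDL and 25.8% in soleus against psoas. The fitted log2 fold change was -0.82 for psoas against EDL (SE 0.18, adjusted p = 0.0182), and 0.61 for soleus against psoas (SE 0.17, adjusted p = 0.0350), so both passed only the looser rule, and soleus against EDL gave -0.21 (SE 0.17, adjusted p = 0.405). The psoas and EDL difference had an adjusted p of 0.0716 without EDL 1, 0.0576 without psoas 3, 0.0544 with these muscles fitted alone and 0.497 in the untrimmed libraries. That of soleus and psoas rose to between 0.0773 and 0.1000 when any psoas library, soleus 1, soleus 2 or soleus 4 was left out, and was 0.0735 with trimming as a covariate and 0.195 in the untrimmed libraries. In DESeq2 the log2 fold change of Actg1 was -0.80 for psoas against EDL (adjusted p = 0.000249) and 0.59 for soleus against psoas (adjusted p = 0.00519). Both met the p limit of the call rule and not its fold limit. In the mice with both muscles, the soleus level of Actg1 was 1.63 and 1.61 times that in psoas.

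**Figure D3:**
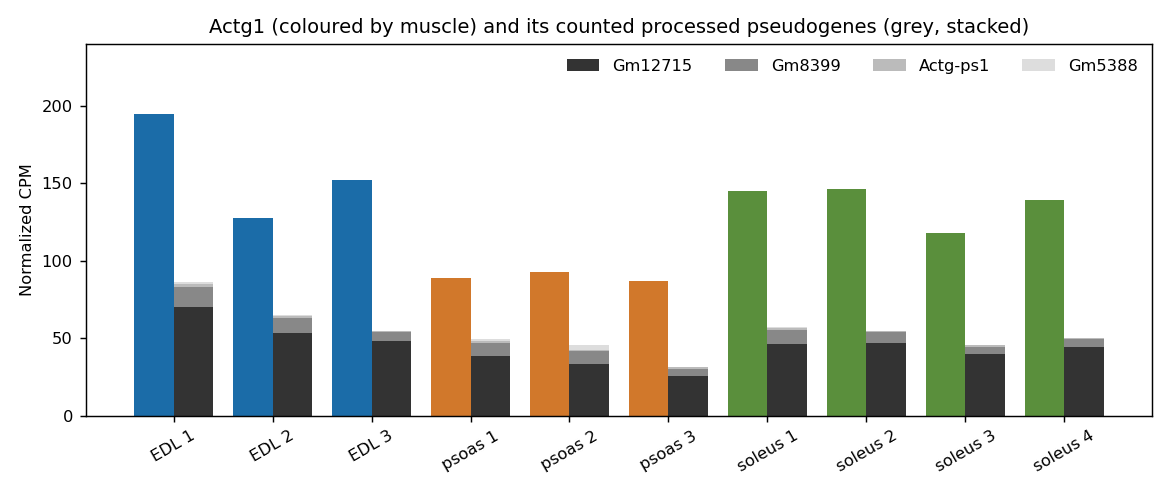
Normalized CPM (y axis, from 0) of Actg1 (coloured bars) and of its 4 counted processed pseudogenes (stacked grey bars) in each library. The pseudogenes together hold 35.9% to 55.7% of the count of Actg1, and Gm12715 makes up most of each stack.

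The count of Actg1 was read together with those of the pseudogenes that share its sequence. Gm12715 shares 898 of its 75-base stretches, Gm8399 502, Actg-ps1 200 and Gm5388 19, and together the 4 were counted at 35.9% to 55.7% of Actg1. These percentages moved with read trimming. Gm12715 was counted at 35.6% to 43.2% of Actg1 in the trimmed libraries and at 29.7% to 33.5% in the untrimmed ones. Gm8399 and Gm5388 were likewise higher relative to Actg1 in every trimmed library than in any untrimmed one, while Actg-ps1 overlapped. All soleus libraries were untrimmed, and the cause of this split was not tested. Summed with them, Actg1 had a log2 fold change of -0.79 in psoas against EDL (adjusted p = 0.0235), -0.26 in soleus against EDL (adjusted p = 0.302) and 0.52 in soleus against psoas (adjusted p = 0.0731), a sum that was added after the data had been seen. In psoas against EDL the pseudogenes alone gave -0.81 for Gm12715 (adjusted p = 0.0224), -0.43 for Gm8399 (adjusted p = 0.454), -0.32 for Actg-ps1 (adjusted p = 0.665), while Gm5388 had the opposite sign (adjusted p = 0.518).

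Because the 5 genes differ in length, their proportions were compared per kilobase of exon within each library. Acta1 made up 95.3% ± 2.43 of the summed actin values in EDL (SD, n = 3), 98.7% ± 0.053 in psoas (SD, n = 3) and 98.7% ± 0.187 in soleus (SD, n = 4). Actc1 contributed 1.98% ± 1.61, 0.522% ± 0.233 and 0.114% ± 0.084, Actb 1.73% ± 0.837, 0.527% ± 0.123 and 0.706% ± 0.075, Actg1 0.816% ± 0.370, 0.251% ± 0.058 and 0.388% ± 0.044, and Acta2 0.144% ± 0.078, 0.042% ± 0.018 and 0.075% ± 0.016 in the same order. EDL thus held the largest proportion of actins other than Acta1 and also the widest spread. None of the 15 comparisons of shares fell under an adjusted p of 0.05 in two-sided exact permutation tests (lowest adjusted p = 0.122), and the smallest unadjusted p these tests can give is 0.1 for 3 against 3 and 0.0571 for 4 against 3.

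The balance of sarcomeric against cytoplasmic actins, Acta1 and Actc1 over Actb and Actg1, was 41.9 in EDL, 130 in psoas and 90.7 in soleus (geometric means per kilobase). The muscles did not overlap in any pair, although EDL 3, the untrimmed EDL library, at 6.29 on the log2 scale stood just below the lowest soleus library at 6.32. The log2 difference was 1.63 for psoas against EDL (exact permutation p = 0.1), 1.12 for soleus against EDL and -0.52 for soleus against psoas (exact permutation p = 0.0571 each), and the adjusted p over the 12 ratio tests was 0.196, 0.137 and 0.137. Actc1 amounted to 4.15%, 0.486% and 2.01% of Acta1 in EDL 1 to 3, to 0.389%, 0.439% and 0.843% in psoas 1 to 3, and to 0.229%, 0.050%, 0.164% and 0.0440% in soleus 1 to 4, in normalized CPM not corrected for length. Among the untrimmed libraries the log2 differences were 1.13, 0.21 and -0.92 with 1 EDL and 1 psoas library. The ratio of Actb to Actg1 averaged 2.07, 2.09 and 1.82, and its groups overlapped in every comparison.

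**Figure D4:**
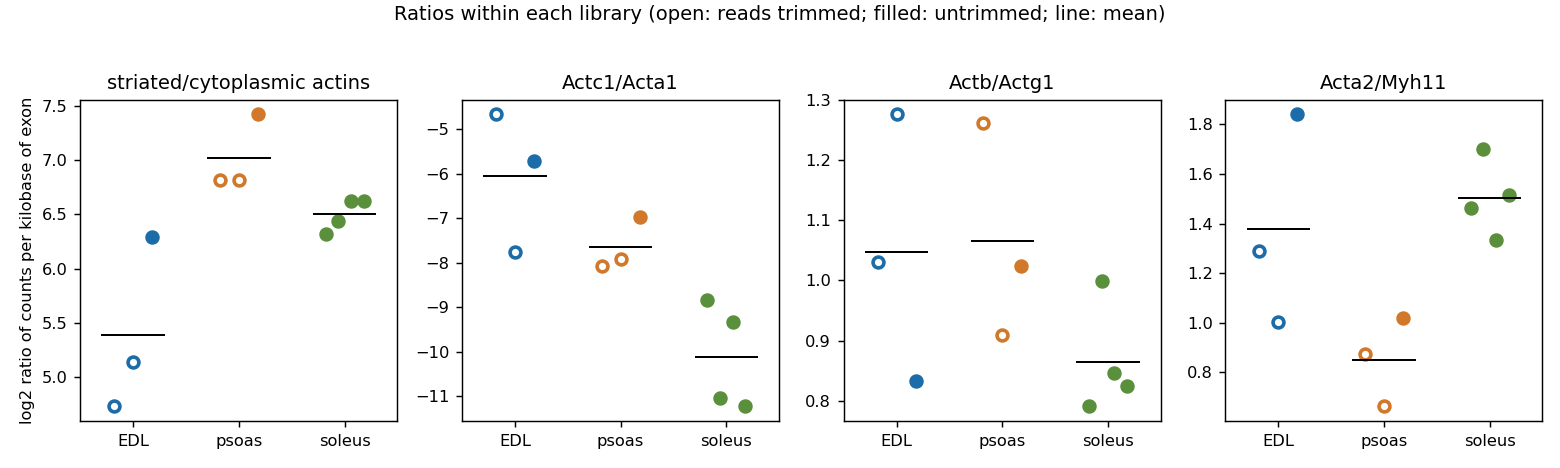
Log2 ratios of counts per kilobase of exon (y axes, each with its own range) for sarcomeric over cytoplasmic actins, Actc1 over Acta1, Actb over Actg1 and Acta2 over Myh11, by library and muscle; open points are libraries with trimmed reads and lines are means. The ratio of sarcomeric to cytoplasmic actins separates the 3 muscles, and the untrimmed library is the highest of its group in EDL and in psoas.

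In whole muscle, fewer cells of a type and less RNA per cell cannot be told apart, and the cytoplasmic actins are made by all cell types present. Summed levels of marker genes are given here by muscle, and they were not correlated with Actb or Actg1 over the libraries. The 6 fibroblast markers summed to 2458 to 4110.0 normalized CPM in EDL, 647 to 929 in psoas and 608 to 1429 in soleus. The 5 tendon markers summed to 443 to 465, 10.3 to 27.5 and 36.4 to 267, and the 5 macrophage markers to 61.3 to 136, 27.9 to 52.4 and 48.2 to 71.1. Sums of the 6 endothelial markers were 129 to 223, 122 to 132 and 150 to 174, and those of the 7 pericyte markers 716 to 770, 570 to 697 and 538 to 773, so for pericytes every psoas library was below every EDL library and soleus overlapped with both. No marker of these lists was at 0 in a whole group, and their part in the levels of Actb and Actg1 was not tested. The adipocyte markers summed to 8.52 to 24.4 in EDL, 9.21 to 47.2 in psoas and 30.6 to 138 in soleus, every soleus library above every EDL library. Schwann cell markers summed to 32.3 to 52.3, 17.5 to 81.7 and 29.3 to 39.4, and erythroid markers to 5.77 to 73.3, 16.4 to 137 and 3.54 to 25.7.

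The partners of actin were counted by their role. Among 25 genes of monomer binding and filament turnover, 1 fell in psoas against EDL (4.0% of the list). In soleus 4 rose against EDL, and 1 rose and 1 fell against psoas. The rule called 2.11%, 5.77% and 5.69% of all genes in these comparisons. Gsn, the severing protein gelsolin, fell from 880 to 344 normalized CPM in psoas (log2 fold change -1.36, adjusted p = 0.00948). In soleus Cfl2, the muscle cofilin, was 699 against 344 in EDL (log2 fold change 1.02, adjusted p = 0.00781), and Coro6, a coronin, 52.1 against 9.19 (2.52, adjusted p = 0.000299). Twf2, a twinfilin, and Wdr1, which works with cofilin, also rose against EDL, from 78.7 to 181 and from 22.8 to 59.2 normalized CPM, and Pfn1, profilin, fell against psoas by 1.14 on the log2 scale. The median of the list in psoas against EDL was -0.70, with 7 of 25 genes above 0, against 0.01 for all genes. In soleus it was -0.33 against EDL and 0.36 against psoas. Under the looser rule 8 of its genes were lower in psoas than in EDL and 2 higher, next to 6.34% and 4.76% of all genes in those directions.

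Among 29 genes of nucleation and elongation, Fhod1, a formin, rose in psoas against EDL (1.80, adjusted p = 0.00355) and fell in soleus against psoas (-1.99, adjusted p = 0.000486). Enah, which elongates filaments, rose in soleus against EDL (1.71, adjusted p = 4.92e-05) and against psoas (1.13, adjusted p = 0.000392). No other gene of that list was called. Its median was 0.07, 0.11 and -0.0016 in psoas against EDL, soleus against EDL and soleus against psoas. Of all genes, 2.11%, 5.77% and 5.69% were called in these comparisons. None of 17 genes of actin folding and maturation, the CCT chaperonin, prefoldin and modifying enzymes, was called in any comparison by edgeR, DESeq2 or limma-voom. In edgeR 0, 3 and 2 of the 17 had an unadjusted p under 0.05, against 4679, 5646 and 4574 of all 16112 genes. Medians of the list were 0.15, 0.24 and 0.13. Of 15 listed other actin genes and actin-related proteins 7 were counted, and Actr1b, a subunit of dynactin, rose in soleus against EDL (1.36, adjusted p = 0.000761) as the only call, beside medians of 0.05, 0.15 and 0.24.

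The next list held genes that cap, cross-link and stabilize the thin filament. Of 19 genes, edgeR called 0 in psoas against EDL, while DESeq2 called 3 and limma-voom 0. In edgeR 10 of the 19 had an unadjusted p under 0.05 there, against 4679 of all 16112 genes. By edgeR 5 rose and 2 fell in soleus against EDL, and 3 rose and 3 fell in soleus against psoas. Of all genes, edgeR called 2.11% in psoas against EDL, 5.77% in soleus against EDL and 5.69% in soleus against psoas. Lmod2, a leiomodin that acts at the filament's pointed end, was 72.9 normalized CPM in soleus against 8.73 in EDL (log2 fold change 3.05, adjusted p = 0.000366) and 19.6 in psoas (1.89, adjusted p = 0.00382). Tmod1, a tropomodulin that caps the same end, fell to 35.4 from 72.4 in EDL (-1.03, adjusted p = 0.00896) and 119 in psoas (-1.75, adjusted p = 0.000486). The α-actinins of the Z-disc moved in opposite directions: Actn2 was 1401 in soleus against 157 in EDL and 331 in psoas, and Actn3 209 against 2580.2 and 5216, all 4 differences called. The other genes called against EDL were Nrap (2747 against 971 normalized CPM), Lmod3 (213 against 95.1) and Xirp1 (104 against 27.0), all higher in soleus. Xirp1 also rose and Lmod1 fell against psoas, by 1.27 and 3.29. The list's median was 0.46, 0.05 and 0.04 in psoas against EDL, soleus against EDL and soleus against psoas.

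Of 20 genes linked to serum response factor and its cofactors, 1 rose and 1 fell in psoas against EDL. In soleus 6 rose against EDL, and 4 rose and 1 fell against psoas. Of all genes, 2.11%, 5.77% and 5.69% were called in these comparisons. Apart from Mrtfa, the calls in soleus lay among LIM and ankyrin repeat genes: Fhl2 was 28.8 normalized CPM in soleus against 0.724 in EDL and 1.01 in psoas, and Ankrd2 234.7 against 14.3 and 26.7. Ablim1, Csrp3, Fhl1 and Fhl3 were the other genes higher than in EDL, and Ablim1 and Ankrd1 were also higher than in psoas. Srf itself was not called, and Mrtfa, a cofactor that senses actin monomers, was 1.37 in soleus against 3.65 in psoas (-1.42, adjusted p = 0.00339). In psoas Fhl3 rose (2.60) and Ankrd1 fell (-5.27, adjusted p = 0.00144 each). The medians of the 3 comparisons, in the order above, were 0.27, 0.54 and 0.37.

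Of 23 partners of cytoplasmic actin at the membrane, 1 fell in psoas against EDL, where 2.11% of all genes were called. In soleus 3 rose against EDL and 2 against psoas, where 5.77% and 5.69% of all genes were called. The medians were -0.20, -0.14 and 0.38 in psoas against EDL, soleus against EDL and soleus against psoas. Pls3, the bundling protein plastin, fell in psoas against EDL (-1.36, adjusted p = 0.00653) and was higher in soleus than in psoas (1.03, adjusted p = 0.00921). Myh10, a nonmuscle myosin, was 110 normalized CPM in soleus against 22.9 in EDL and 21.2 in psoas (adjusted p = 8.84e-05 and 7.30e-05). Flnc, the muscle filamin, and Tln2, a talin, rose in soleus against EDL by 1.85 and 1.44 on the log2 scale.

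Actc1 was set beside genes of developing and cardiac muscle, with 12 of 16 listed genes counted. In soleus against EDL 1 rose, Myh6 (6.72, adjusted p = 8.84e-05), the α-cardiac myosin, and 1 fell, Myh8 (-1.32, adjusted p = 0.00283), the perinatal myosin. Against psoas Myh6, Tnni3, Ncam1, Tnnt2 and Chrna1 rose and Myh8 fell (-1.80, adjusted p = 0.000475). In psoas against EDL edgeR called 0, DESeq2 4 and limma-voom 1. In edgeR 4 of the 12 had an unadjusted p under 0.05 there, against 4679 of all 16112 genes. The rule called 2.11% of all genes in psoas against EDL, 5.77% in soleus against EDL and 5.69% in soleus against psoas. The medians were -0.42, 0.65 and 1.27 in psoas against EDL, soleus against EDL and soleus against psoas. Actc1 was thus lower in soleus than in EDL while Myh6, another gene of heart muscle, was higher. Of the fast fiber genes 3 of 8 fell in soleus against EDL and 5 of 8 against psoas, Myh4 with the largest fold. In the same comparisons 2.18% and 2.71% of all genes were called lower in soleus.

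The genes whose levels ran most like those of each member were found by Pearson correlation of log2 normalized CPM over the 10 libraries, among 12664 genes with a mean of at least 1 normalized CPM. These points share libraries, muscles and trimming, and the values are a description. For Actc1 they were Ptgr1 (r = 0.950), Lta4h (0.912), Mybph (0.904), Zfp983 (0.897) and Mfsd1 (0.895). For Acta2 they were Itpkb (0.956), Fads3 (0.953), Ldb1 (0.943), Ano1 (0.938) and Tagln (0.935), the last a marker of smooth muscle. For Acta1 the list opened with Ube3b (0.985), Kpnb1 (0.981) and Szrd1 (0.980), for Actb with Ptger4 (0.980), Clic1 (0.979) and Dennd4a (0.979), and for Actg1 with Leprot (0.988), Hsd3b7 (0.969) and Frmd6 (0.967). Among the members themselves Actb and Actg1 were most alike (r = 0.893), followed by Acta2 with Actb (0.780), and the lowest value was that of Acta1 with Actb (-0.701).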

How the data were processed

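Total RNA of 10 muscles kept in RNAlater was made into stranded, ribosomal RNA-depleted libraries and sequenced as paired 75-base reads. The authors trimmed reads with Trimmomatic 0.32 in some libraries, aligned with TopHat2 2.1.1 to GRCm38.p4 and counted reads per Ensembl gene, per the labels and the study's methods; the counts were deposited as whole numbers without normalization. The strand setting and the handling of reads that align to several places are not given in the sources used here. FastQC served for read quality, and BWA and Picard for insert sizes. Libraries were sequenced over 3 runs, and the study corrected some displays for the run; the run of each library is not given in the sources used here, so no fit holds it as a term and its part in the values was not tested.

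Symbols and exon lengths were taken from GENCODE M21 (16032 of 16112 IDs matched). All genes had at least 10 reads in at least 3 samples. Normalized CPM used TMM factors of edgeR 4.0.16 in R 4.3.3, and FPKM divided them by union exon length. Muscles were compared with glmQLFit and glmQLFTest in 1 fit without covariates, and ratios and shares with exact permutation tests in scipy 1.17.1. Alternatives used DESeq2 1.42.0, limma 3.58.1, other scalings, filters and covariates, and fits leaving out each library. The steps were tested on simulated counts. The members and gene lists were chosen with earlier results of these data known. From each list, genes called in any comparison could be named, up to 6 per list and comparison. Replicates within a muscle differed by more than sampling noise. The animal codes of the labels name 7 mice while the study's methods state 6, so libraries may share a mouse beyond the pairs given. Where libraries share a mouse, p-values do not account for it except in the fit with the animal as a random effect. The study used other tools (DESeq2) for its own comparisons. Total counts of 12737971 to 50431713 set a floor of 3 reads at 0.0595 to 0.236 CPM, and this floor covers counting error only.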

Additional observations from a re-analysis of the deposited data

How the results depend on the processing

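The 5 actin genes kept their direction in every alternative and comparison except Acta2 in soleus against EDL and Acta1 in soleus against psoas, both with main log2 fold changes near 0. Acta2 in soleus against EDL was -0.000806 with DESeq2, -0.0014 with DESeq2 size factors, -0.091 with upper-quartile normalization, -0.0055 with filterByExpr, -0.12 with a mean of at least 5 CPM and -0.20 to 0.11 when 1 library was left out. Acta1 in soleus against psoas was 0.32 with library totals alone and -0.16 to 0.13 when 1 library was left out. Of the 5, the number called in soleus against EDL was 0 in limma-voom, in a fit of those 2 muscles alone, in untrimmed libraries only and with sex as a covariate, and 0 to 1 when 1 library was left out; at an adjusted p under 0.05 with any fold, 2 were called in psoas against EDL and 2 in soleus against psoas.

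Calls over all genes in psoas against EDL, 340 in the main fit, were 1095 with DESeq2, 656 with library totals, 202 with a mean of at least 5 CPM, 153 with the 2 muscles alone, 605 with trimming and 865 with sex as a covariate, and 61 to 963 when 1 library was left out. The untrimmed libraries gave 0 by edgeR, with 1172 genes at an unadjusted p under 0.05. In soleus against EDL (929) they were 1520.0 with DESeq2, 371 with trimming, 48 in untrimmed libraries and 385 to 1511 when 1 library was left out. In soleus against psoas (917) they were 1382, 566 and 33 in the same order, and 493 to 964. At an adjusted p under 0.05 with any fold, 1789, 2995 and 2340.0 genes passed.

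With the replicate number as a block over 10 libraries, 146, 586 and 539 genes were called, and Actg1 in soleus against psoas had an adjusted p of 0.0903. Same-numbered EDL and psoas libraries carried different animal codes, and the numbers were not taken to pair the samples. Their deviations from the group means correlated at 0.248, 0.0881 and 0.503. The last value is that of EDL 3 and psoas 3, both untrimmed, so these correlations cannot decide the pairing. The share of Acta1 in soleus minus psoas turned to -0.020 percentage points with the longest transcript as length and -0.16 without length correction. In untrimmed libraries, in soleus against EDL, the share of Acta2 differed by 0.022 percentage points, log2 Acta2 over Myh11 by -0.34 and log2 Actb over Actg1 by 0.032. When 1 library was left out, log2 Acta2 over Myh11 in soleus against EDL ran from -0.061 to 0.36 and log2 Actb over Actg1 in psoas against EDL from -0.089 to 0.13. The cause of these changes was not tested.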
